A study of Homo sapiens with 6 samples.

Results

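Genes whose symbol ends in -AS1 are named as antisense to another gene: the part of the symbol before -AS1 is the gene on the opposite DNA strand, called the partner here. Of 28979 Ensembl gene IDs in the count files, 1269 carried such a symbol. The 477 of them (37.6%) with a mean of at least 10 CPM over the libraries were taken as members, where CPM is the count divided by the library total and multiplied by 1e6. The members were thus chosen by their own mean level, which is described without a test. All 477 had distinct symbols. A partner of that name was among the counted genes for 468 members, and 467 partners are protein coding. The other 9 members, MYL12-AS1 and HOXB-AS1 among them, had no counted gene of the exact partner name.

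The cells were MDA-MB-231, a human breast cancer line of mesenchymal and triple-negative character. Per the series design, such cells received exosomes, small vesicles shed by cells, of cardiomyocytes that were either normal or hypertrophic. The titles number 3 libraries Con and 3 libraries Ang, and no label says what these names stand for, so the groups keep them. No label gives a dose, an exposure time or separate cultures. The p-values below hence reflect only how far these libraries scatter, and that scatter may be technical.

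Natural antisense transcripts are RNAs made from the strand opposite to another gene. Some overlap the exons of that gene tail to tail or head to head, and some start at a shared promoter and run away from it. Individual ones act on the stability, splicing or transcription of the partner, and others work away from their own locus, for example by binding microRNAs. Many have been described in tumour cells, where high levels of AFAP1-AS1 or SBF2-AS1 have been linked to invasion and growth.

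Telling the 2 RNAs of such a pair apart needs the strand of each read. The library protocol in the labels names poly-T selection, random priming and second-strand synthesis, and no step that marks the strand. The strand setting of the read counter is not given in the sources used here. Without strand, reads of a gene and of its antisense partner cannot be told apart where their exons overlap. The deposited counts were nevertheless uneven between the strands of such pairs, as given below for 258 of them. Whether each count was assigned to the strand of its RNA was not tested. Every level below is the count deposited for that gene, not a measured amount of antisense RNA. The direction of each ratio between an AS1 gene and its partner rests on that assignment. Under the opposite assignment, reads would change gene where exons of both strands coincide, and a ratio could reverse. Ratios under it were not computed. Genomic positions are on GRCh38 from GENCODE release 29, which held 476 of the 477 members. It may not be the annotation used for counting.

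The sequences below show what such an overlap looks like in VIM-AS1 and PHLDA1-AS1, which are among the members with the most counts. Each is a stretch of 30 bases, 5′ to 3′, from an exon of the AS1 gene and from the coding sequence of its partner at the same position, read from the GENCODE transcripts. The members of a pair are the reverse complement of each other, so a fragment from this stretch carries the same bases in either case, and only its strand would assign it. The longest unbroken stretch of shared exon was 641 bases for VIM-AS1 and 468 for PHLDA1-AS1.
VIM-AS1, chr10:17229651-17229680, minus strand: gaagtccaccgagtcctgcaggagccgcac
VIM, the same bases, plus strand: gtgcggctcctgcaggactcggtggacttc
PHLDA1-AS1, chr12:76031130-76031159, plus strand: ctgttgttgctgctgctgctgctgctgttg
PHLDA1, the same bases, minus strand: caacagcagcagcagcagcagcaacaacag

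The libraries held 3369212 to 5437190 counts, and 3 counts, the most that a count of 0 allows at the 95% level, equal 0.552 to 0.890 CPM. This limit covers counting error only, because reads amplified by PCR are not independent molecules. Marker levels here carry the library scaling of edgeR (TMM). Of 8 markers of the cell line, 7 were counted above 1 CPM in Con and SPARC was near 0. Of 8 epithelial and luminal markers fixed as ones the line should lack, ESR1, PGR, CDH1 and FOXA1 were under 1 CPM in Con. KRT8 and KRT18, keratins of simple epithelia, were at 947 and 159 CPM, EPCAM at 9.75 CPM and GATA3 at 4.65 CPM. Of 12 cardiomyocyte markers, 8 were in the files, and their summed level was 7.34 to 19.0 CPM in Con and 7.86 to 14.1 CPM in Ang.

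Con replicate 2 stood apart from the other libraries in exactly the quantity that these pairs measure. In 258 pairs of a noncoding gene whose exons lie at least 90% under exons of a coding gene on the other strand, the noncoding gene had a median of 38.8, 22.3 and 40.2 times the counts per exon base of the coding gene in Con replicates 1, 2 and 3. The same median was 33.1, 31.6 and 34.6 in Ang replicates 1, 2 and 3. Only 13 of these pairs hold a member. Results of Ang against Con are therefore given with and without Con replicate 2.

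The median member level was 52.7 CPM, and the lowest was 10.1 CPM. At least 100 CPM was reached by 162 members and at least 1000 CPM by 16. Together the members took 10.01%, 8.03% and 9.98% of all counts in Con replicates 1, 2 and 3 and 9.48%, 9.05% and 9.57% in Ang replicates 1, 2 and 3. Their partners took 2.41% to 2.91%. The members' share was thus lowest, and the partners' share highest, in Con replicate 2. Just inside the threshold lay ITFG2-AS1 at 10.2 CPM, CYLD-AS1 at 10.2 CPM and LBX2-AS1 at 10.1 CPM. Just outside lay BICD1-AS1 at 9.98 CPM, LAMC1-AS1 at 9.86 CPM and OGFR-AS1 at 9.82 CPM.

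In every further value per library, CPM carries the same TMM scaling, and libraries are listed as Con replicates 1, 2, 3 and then Ang replicates 1, 2, 3. TUBA1B-AS1 (ENSG00000258017, chr12:49127782-49147869, plus strand) lies opposite TUBA1B, an alpha-tubulin of the microtubules, with 80.2% of its exon bases under TUBA1B exons. TUBA1B-AS1 was at 7266, 4715 and 6601 CPM in Con and at 6660, 6294 and 6918 CPM in Ang. TUBA1B was at 119, 178 and 120 CPM in Con and at 140, 160 and 144 CPM in Ang. VIM-AS1 (ENSG00000229124, chr10:17214239-17229985, minus strand) lies opposite VIM, the intermediate filament gene that marks mesenchymal cells, with 32.2% of its exon bases covered. VIM-AS1 was at 5862, 4574 and 6306 CPM in Con and at 6098, 5800 and 6211 CPM in Ang. VIM was at 842, 1093 and 826 CPM in Con and at 1018, 1077 and 979 CPM in Ang. In both pairs the antisense gene was lowest and the coding gene highest in Con replicate 2, and the groups overlapped for all 4 genes.

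The next members by level were PHLDA1-AS1, MIF-AS1 and PXN-AS1. Their partners encode a pleckstrin-homology protein, the cytokine macrophage migration inhibitory factor and the focal adhesion protein paxillin. PHLDA1-AS1 was at 2894, 2227 and 3067 CPM in Con and at 2894, 2682 and 2993 CPM in Ang, and 97.2% of its exon bases lie under PHLDA1 exons. MIF-AS1 was at 2970, 2197 and 2884 CPM in Con and at 2874, 2696 and 2945 CPM in Ang, while MIF, a short gene, stayed between 11.3 and 23.2 CPM. PXN-AS1 was at 2597, 2061 and 3110 CPM in Con and at 2869, 2694 and 2960 CPM in Ang. Below them came RPL30-AS1, opposite a ribosomal protein gene, IER3-AS1, opposite an immediate early gene, AFAP1-AS1, opposite an actin filament adaptor gene, and PCBP1-AS1, opposite a gene for an RNA-binding protein. All of these 9 members were lowest in Con replicate 2, and 5 of their partners were highest there.

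**Figure D1:**
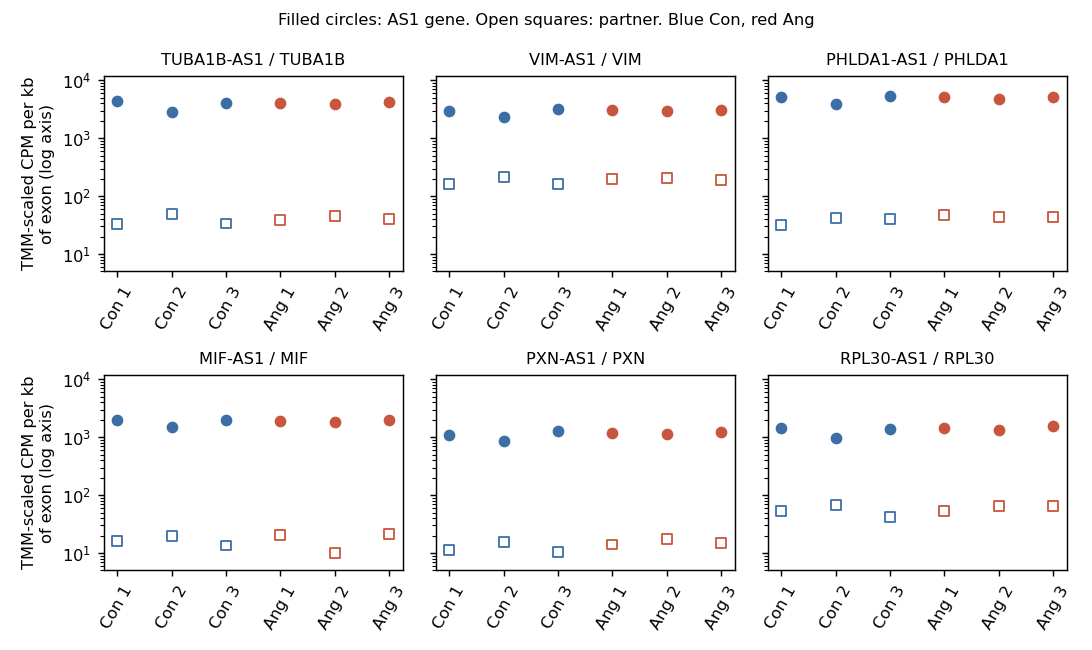
TMM-scaled CPM per kb of exon (log axis) in each of the 6 libraries for TUBA1B-AS1, VIM-AS1, PHLDA1-AS1, MIF-AS1, PXN-AS1 and RPL30-AS1 (filled circles) and their partners (open squares), with Con in blue and Ang in red. Every AS1 gene lies above its partner in all 6 libraries, and every AS1 gene is lowest in Con replicate 2.

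Levels of different genes were compared per exon base, except in the rank correlations given below. On that scale TUBA1B-AS1 had 3911 CPM per kb against 40.4 for TUBA1B, VIM-AS1 had 2906 against 189 for VIM, and PHLDA1-AS1 had 4891 against 41.4 for PHLDA1. The AS1 gene exceeded its partner in 435 of 467 pairs (93.1%), and in each of the 6 libraries in 410. The median ratio was 10.1-fold, with quartiles of 2.97-fold and 29.7-fold. A ratio above 10-fold was seen in 235 pairs and above 100-fold in 30. These ratios contain the level that chose the members, so they describe the members and test nothing.

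**Figure D2:**
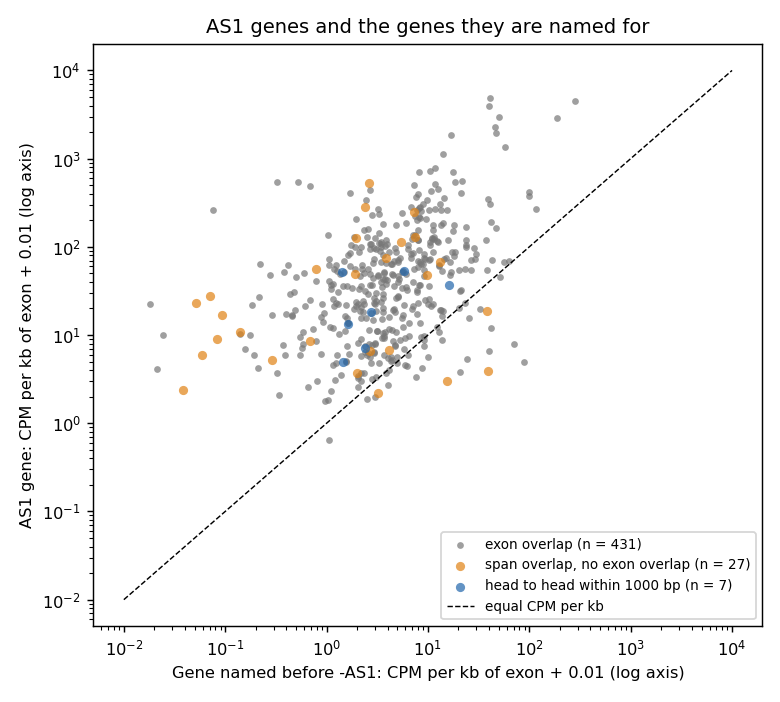
Mean CPM per kb of exon of the AS1 gene (y axis) against its partner (x axis), both on log axes with 0.01 added, coloured by how the 2 genes lie to each other. Most pairs lie above the dashed line of equal level: 404 of 431 with exon overlap, 23 of 27 with overlapping spans only and 7 of 7 that start head to head.

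Pairs chosen by the counts of both genes together, rather than by the AS1 level alone, gave a smaller ratio. Of all AS1 genes, 994 pairs had at least 100 counts summed over both genes and all libraries. The AS1 gene's own counts are part of that sum. The median ratio was 1.95-fold, and the AS1 gene was higher in 59.9%. Among the 725 with exon overlap the median was 3.96-fold, and the AS1 gene was higher in 71.6%. Where the spans overlapped without shared exon bases, the median over 230 pairs was 0.280 and the AS1 gene was higher in 27.8%. In 27 pairs that start head to head within 1000 bp, the median was 0.273 and the AS1 gene was higher in 29.6%. Among these pairs, the AS1 gene was thus more often counted above its partner where exons of both strands coincide. Spearman correlations were taken on mean CPM, without TMM scaling or division by exon bases. Over the 850 exon-overlapping AS1 pairs the correlation was 0.47, and over the 311 pairs with overlapping spans only it was 0.11. Both correlations are across genes, which share libraries and are not independent replicates.

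The members also differed from the other AS1 genes in how they lie on the genome. The rule did not use position, but it used counts, and reads from coinciding exons of both strands can enter those counts. The comparison is thus not independent of the rule and is given as description. Exon overlap with the partner was annotated for 90.4% of members and for 52.9% of the 792 AS1 genes under the threshold. The median member had 19.2% of its exon bases under exons of any opposite-strand gene, against 5.12% under the threshold. With no opposite-strand exon at all, 17 of 316 AS1 genes (5.38%) reached 10 CPM. That share was 42.7% of 599 with up to 25% of bases covered, 56.1% of 205 with 25 to 50%, 60% of 90 with 50 to 75% and 61.8% of 55 with 75 to 100%. The median level per kb of exon ran in the same order, from 0.408 CPM without any cover to 2.67, 15.8, 20.6 and 29.2 CPM in the classes with rising cover.

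**Figure D3:**
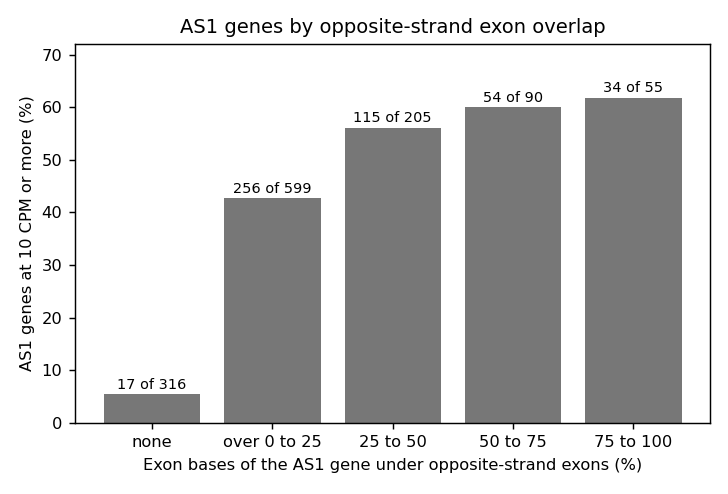
Share of AS1 genes at 10 CPM or more (%, y axis) by the percent of their exon bases that lie under opposite-strand exons (x axis), with the counts above the bars. The share is 5.38% without overlap and 61.8% in the class with the most overlap.

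For 72 members the most counted gene across from their exons was not the partner of the name. ICAM4-AS1 was at 1665, 1332 and 2004 CPM in Con and at 1763, 1775 and 1987 CPM in Ang, and ICAM4, a red cell adhesion molecule, stayed at or below 1.56 CPM. Its exons also lie under ICAM1, the adhesion molecule of inflamed endothelium and of many tumour cells, which held the most counts there. TICAM2-AS1 was at 223 to 409 CPM and lies also under TMED7, a cargo receptor of the secretory pathway, while TICAM2, a Toll-like receptor adaptor, had 6 counts in all libraries. CNPY2-AS1, at 228 to 320 CPM, lies also under CS, which encodes citrate synthase of the tricarboxylic acid cycle.

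These genes had the highest ratios to the partner of their name. From summed counts, TICAM2-AS1 had 3428 times the counts per base of TICAM2, with an exact binomial (Clopper-Pearson) 95% interval of 1574 to 9343 that covers counting error only. PRC1-AS1 had 1816 times (1338 to 2531) those of PRC1, a gene of the mitotic spindle midzone, and the most counted gene opposite it was one without a symbol. ICAM4-AS1 had 1106 times (690 to 1898) those of ICAM4. CNPY2-AS1 had 687 times (523 to 921) those of CNPY2, a chaperone-like gene. C1QTNF7-AS1 had 502 counts against 1 count of C1QTNF7, a ratio of 3090 with an interval of 552 to 122290, so its place in this order is not fixed by the counts.

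At the other end, 32 members had fewer counts per base than their partner, 16 of them in all 6 libraries. TPT1-AS1 was at 44.4, 39.4 and 61.4 CPM in Con and at 48.3, 53.8 and 61.7 CPM in Ang, against 567 to 696 CPM of TPT1, which encodes the translationally controlled tumour protein. Its ratio per base was 0.0549, the lowest of all pairs, and only 0.25% of its exon bases lie under TPT1 exons. PSMA3-AS1, whose span overlaps that of the proteasome subunit gene PSMA3 without a shared exon base, had a ratio of 0.0986. MORF4L2-AS1 had a ratio of 0.112 to the chromatin gene MORF4L2, ITFG2-AS1 one of 0.163 to ITFG2 and ADIRF-AS1 one of 0.181 to ADIRF, a gene linked to fat cell differentiation. These 5 pairs share 0% to 16.0% of the AS1 gene's exon bases.

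The 17 members without any opposite-strand exon are those whose counts no annotated opposite-strand exon shares. SHROOM3-AS1 was the most counted, at 175, 132 and 165 CPM in Con and at 159, 152 and 165 CPM in Ang. CPB2-AS1 was at 70.2 to 161 CPM, while CPB2, a liver carboxypeptidase that limits clot lysis, had 3 counts in all. SAP30L-AS1, which starts 107 bp from SAP30L and runs the other way, was at 139, 77.6 and 107 CPM in Con and at 104, 85.8 and 104 CPM in Ang. Its partner, a subunit gene of a histone deacetylase complex, was at 6.26 to 12.2 CPM. For these 3 members the groups overlapped, and each was again lowest in Con replicate 2. The other genes of this kind included TRAM2-AS1 at 72.2 to 126 CPM, KLC1-AS1 at 55.5 to 82.7 CPM, and OTUD6B-AS1, RAB4A-AS1 and ZNF528-AS1, which start 7 bp, 34 bp and 83 bp from their partners.

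Among the antisense RNAs fixed as a list of characterised ones, 18 were members. The highest were VIM-AS1, MIF-AS1, AFAP1-AS1 and PCBP1-AS1, named above. HIF1A-AS1, opposite the hypoxia factor gene HIF1A, was at 342, 198 and 245 CPM in Con and at 292, 294 and 291 CPM in Ang. EGFR-AS1, opposite the receptor tyrosine kinase gene EGFR, was at 226, 158 and 199 CPM in Con and at 229, 201 and 251 CPM in Ang. OIP5-AS1, a conserved cytoplasmic RNA known as a sponge of microRNAs, was at 54.7, 47.1 and 81.1 CPM in Con and at 52.7, 63.6 and 68.0 CPM in Ang. The groups overlapped for all 3. Per exon base OIP5-AS1 and OIP5 were nearly level, with a ratio of 1.03, whereas HIF1A-AS1 had 4.24 times and EGFR-AS1 5.02 times the counts of the partner. The other 11 were SPAG5-AS1, MCM3AP-AS1, TMPO-AS1, SBF2-AS1, PTOV1-AS1, VPS9D1-AS1, FGD5-AS1, LOXL1-AS1, THAP9-AS1, PSMA3-AS1 and NNT-AS1, from 417 to 561 CPM for SPAG5-AS1 down to 15.8 to 28.7 CPM for NNT-AS1.

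Across libraries the ratio moved for most pairs at once. The median AS1 gene had 12.04, 7.17 and 11.5 times the counts per base of its partner in Con replicates 1, 2 and 3. In Ang replicates 1, 2 and 3 it had 9.97, 8.48 and 9.73 times. All Ang libraries therefore lay between Con replicate 2 and the other Con libraries. The ratio was lowest in Con replicate 2 for 237 of 467 pairs. The AS1 gene's own level was lowest there for 281 of 477 members and highest there for 2, and the partner's level was highest there for 105 of 468.

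**Figure D4:**
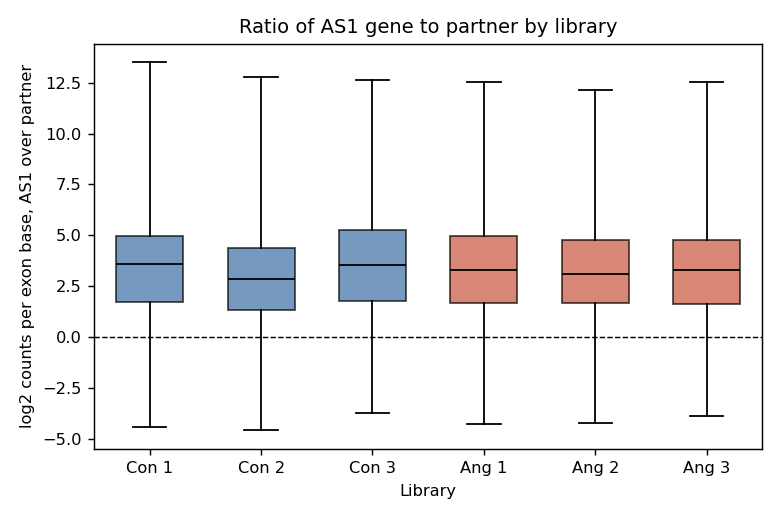
Log2 ratio of counts per exon base, AS1 gene over partner, for 467 pairs in each library. Boxes show the quartiles and the median, whiskers the lowest and highest pair, the dashed line equal counts per base, blue Con and red Ang; the median box line is lowest in Con replicate 2 and higher in Con replicates 1 and 3 than in any Ang library.

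The comparison of Ang with Con was not used in choosing the members. With all 6 libraries, edgeR's quasi-likelihood test called none of the 477 members at an adjusted p under 0.05, with a smallest adjusted p of 0.999, and it called 0% of all 14547 tested genes. At an unadjusted p under 0.05, 2 members were higher in Ang, where 1.42% of all genes were, and 14 were lower, where 1.98% were. DESeq2 called 0 members, with 8 under that p, and limma-voom called 0, with 15. Log2 fold changes (Ang minus Con) had a median of -0.03, against -0.01 over all genes, and 262 members were below 0. The median standard error was 0.21. The 95% interval lay within a 2-fold change in either direction for 427 members (89.5%), against 64.2% of all genes. In bulk RNA, fewer cells expressing a gene and less RNA per cell cannot be told apart.

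All values of Ang lay above all of Con for 7 members, against 3.64% of all genes, and below for 21, against 4.52%. The smallest unadjusted p belonged to RXYLT1-AS1 (chr12:63804739-63822156, minus strand), opposite a gene of dystroglycan glycosylation, with 74.6% of its exon bases under RXYLT1. RXYLT1-AS1 was at 44.6, 31.5 and 45.2 CPM in Con and at 24.2, 22.8 and 22.7 CPM in Ang. The groups did not overlap, with a log2 fold change of -0.80 ± 0.25 (SE) and an unadjusted p of 0.00138. RXYLT1 itself stayed between 0.838 and 5.76 CPM.

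SEC23A-AS1, opposite a coat protein gene of vesicles leaving the endoplasmic reticulum, was at 61.4, 40.2 and 46.5 CPM in Con and at 28.5, 33.3 and 35.8 CPM in Ang. Its log2 fold change was -0.60 ± 0.23, and that of SEC23A was -0.07 ± 0.18. Without Con replicate 1, that of SEC23A-AS1 was -0.41 ± 0.26. TGFB2-AS1 starts 557 bp from TGFB2, the gene of a transforming growth factor ligand, and has no exon under an opposite-strand exon. TGFB2-AS1 was at 51.6, 28.99 and 29.6 CPM in Con and at 27.7, 24.0 and 17.5 CPM in Ang. The groups did not overlap, but Con replicates 2 and 3 lay close above the highest Ang library. The log2 fold change was -0.67 ± 0.25 for TGFB2-AS1 and -0.15 ± 0.25 for TGFB2. Without Con replicate 1, the highest library, that of TGFB2-AS1 was -0.35 ± 0.29. ADAMTSL4-AS1, opposite a gene of fibrillin-rich matrix, went the other way, at 32.5, 34.4 and 52.1 CPM in Con and at 69.0, 51.3 and 61.1 CPM in Ang, with overlapping groups and a log2 fold change of 0.62 ± 0.21. The log2 fold changes of the next members by p were -0.43 ± 0.18 for SLC7A11-AS1, -0.72 ± 0.31 for SPEN-AS1 and -0.83 ± 0.36 for RBM12B-AS1. Without Con replicate 1 they were -0.29 ± 0.21 for SLC7A11-AS1, -0.51 ± 0.35 for SPEN-AS1 and -0.32 ± 0.43 for RBM12B-AS1. SLC7A11-AS1 lies opposite the cystine transporter gene SLC7A11, and the groups overlapped for it and for RBM12B-AS1 but not for SPEN-AS1. None of these members passed the adjusted test.

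The 9 members from TUBA1B-AS1 to PCBP1-AS1, described above for their high counts, had log2 fold changes of -0.01 to 0.19, with a smallest unadjusted p of 0.290 in edgeR. Without Con replicate 2, 7 of the 9 changed sign, the range was -0.16 to 0.03 and the smallest unadjusted p was 0.0634. With all libraries each had a standard error of 0.18. Of the 468 partners 432 were tested and 0 were called. At an unadjusted p under 0.05 in edgeR, 3 partners were higher, where 1.42% of all genes were, and 6 were lower, where 1.98% were. The partners' median log2 fold change was 0.01.

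Whether an AS1 gene and its partner changed differently was tested on the log2 ratio of their counts within each library, with limma over 3835 opposite-strand pairs. Of the 432 AS1 pairs in that fit 0 were called, as were 0% of all pairs, with a smallest adjusted p of 0.999. At an unadjusted p under 0.05 there were 7 AS1 pairs (4 higher and 3 lower in Ang), where 2.5% of all pairs were. Ratios in Ang lay above all of Con in 11 pairs and below in 11, against 3.31% and 3.44% of all pairs. The median difference was -0.03, and -0.02 over all pairs.

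FAM13A-AS1 had the smallest p of this test. FAM13A-AS1 was at 49.9, 48.3 and 65.2 CPM in Con and at 46.0, 41.3 and 31.0 CPM in Ang. FAM13A was at 43.8, 28.8 and 53.6 CPM in Con and at 55.0, 50.6 and 54.8 CPM in Ang. The log2 ratio was lower in every Ang library than in every Con library, by -0.86 ± 0.31 (limma, unadjusted p 0.00988). The ratio of PPP1R14B-AS1, opposite a phosphatase inhibitor gene, differed by -0.72 ± 0.31. Those of ADAMTSL4-AS1, THUMPD3-AS1 and RAP2C-AS1 differed by 0.73 ± 0.33, 0.62 ± 0.29 and 0.75 ± 0.35. Without Ang replicate 3, these became 0.65 ± 0.40, 0.51 ± 0.35 and 0.44 ± 0.39, in the same order. FAM13A-AS1 was then at -0.68 ± 0.37. The difference of PPP1R14B-AS1 was -0.60 ± 0.35 without Con replicate 1. In THUMPD3-AS1 the AS1 gene had a log2 fold change of 0.01 ± 0.18 and THUMPD3, an RNA methyltransferase gene, one of -0.59 ± 0.22.

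The members' median depended on which Con library was left out. Without Con replicate 1 the median log2 fold change was 0.03, with 219 members below 0, and without Con replicate 3 it was 0.05, with 212 below 0. At an unadjusted p under 0.05 without Con replicate 3, 15 members were higher and 9 lower. In either direction, 559 of all tested genes were under that p in the same fit. No share of all genes by direction is given for that fit, so these member counts are description only. Without Con replicate 2, in which 281 members had their lowest level, 379 of 477 had a log2 fold change below 0, with a median of -0.19 against -0.00 over all genes. At an unadjusted p under 0.05, 102 members (21.4%) were lower in Ang, where 5.52% of all genes were, and 2 were higher, where 5.47% were. Among the partners 42 were higher and 12 lower. After adjustment 2 members were called, where 0.269% of all genes were. RAD21-AS1, opposite the cohesin subunit gene RAD21, fell by 0.58 ± 0.14 on the log2 scale (edgeR adjusted p 0.0487). RXYLT1-AS1 fell by 0.95 ± 0.24 (edgeR adjusted p 0.0487). RAD21-AS1 was at 148 and 140 CPM in Con replicates 1 and 3, at 91.5 CPM in Con replicate 2, and at 107, 97.8 and 84.0 CPM in Ang. With all Con libraries its groups overlapped and its log2 fold change was -0.39 ± 0.18.

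In addition, 1 partner was also called in that fit: LOXL2, a collagen cross-linking enzyme gene, was higher in Ang by 0.60 ± 0.14 (edgeR adjusted p 0.0452). Of the pair ratios 78 had an unadjusted p under 0.05, 75 of them lower in Ang, where 9.41% of all pairs were. The ratio of GTF3C2-AS1 to GTF3C2, a subunit gene of a transcription factor of RNA polymerase III, was called, at -1.65 ± 0.36 (limma adjusted p 0.0179), where 0.179% of all pairs were. GTF3C2 was at 10.3 and 5.9 CPM in Con replicates 1 and 3, at 31.7 CPM in Con replicate 2 and at 17.2 to 25.5 CPM in Ang.

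The ratio of noncoding to coding genes in the 258 overlapping pairs moved with this result: it was 38.8 and 40.2 in the remaining Con libraries and 31.6 to 34.6 in Ang. When that ratio was a term of the same fit, in an alternative added after the data were seen, 0 members were called, as were 0% of all genes. At an unadjusted p under 0.05, 9 members were lower, where 2.41% of all genes were, and 20 were higher, where 2.49% were. The median log2 fold change was 0.07. RXYLT1-AS1 was at -0.97 ± 0.75 and RAD21-AS1 at -1.02 ± 0.45 in that fit, both still below 0 and with larger standard errors. The remaining Con libraries hold the highest ratios, so ratio and group cannot be fully told apart in that fit. The planned fit of all 6 libraries with that ratio as a term also called 0 members. At an unadjusted p under 0.05, 30 members (6.29%) were lower and 15 higher. In either direction, 891 of all 14547 tested genes were under that p. Among the 432 tested partners, 21 were higher and 9 lower. For this fit, too, no share of all genes by direction is given, so the counts by direction are description only. The members' median log2 fold change was -0.02.

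**Figure D5:**
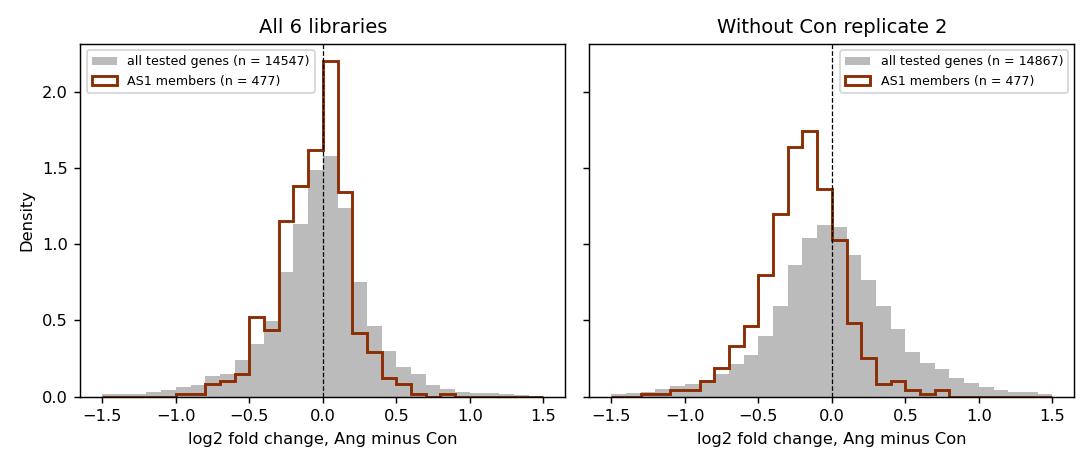
Density of log2 fold changes, Ang minus Con, for the 477 members (outline) and all tested genes (grey), with all 6 libraries (left) and without Con replicate 2 (right). The members' median is -0.03 on the left and -0.19 on the right.

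Other noncoding gene names gave a comparison. Of 87 genes ending in -AS2, 23 (26.4%) reached 10 CPM, as did 11 of 22 (50%) ending in -AS. Of 400 ending in -DT, which are named as divergent transcripts and start next to their partner, 69 (17.3%) did. Their median share of exon bases under opposite-strand exons was 6.65% for -AS2, 17.7% for -AS and 0% for -DT. None of these genes was called in Ang against Con by edgeR with all 6 libraries, and an unadjusted p under 0.05 was seen for 3 of 41 tested ending in -AS2, 1 of 14 ending in -AS and 1 of 122 ending in -DT, where 1.42% of all genes were higher and 1.98% lower.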

How the data were processed

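Poly-T-selected RNA of 6 MDA-MB-231 libraries was sequenced, per the labels' protocols. The authors deposited whole-number read counts per Ensembl gene. Per the submitters' processing notes, HTSeq 0.9.1 and DESeq 1.39.0 were used with GRCh38. No aligner, annotation release or strand setting is given in those sources. Libraries were grouped by the Con or Ang of their titles.

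Symbols were matched for 28918 of 28979 IDs and exons (GENCODE 29) for 28192. Overlap of exons on opposite strands was found with bedtools 2.31.1. Counts were fitted over all genes with edgeR 4.0.16 in R 4.3.3 (filterByExpr, TMM, robust quasi-likelihood test, Benjamini-Hochberg adjustment, threshold 0.05). Log2 ratios of pairs, with 0.5 added to each count, were fitted with limma 3.58.1. DESeq2 1.42.0, limma-voom, other scalings, filters, pseudocounts, the replicate block, and leaving out each library were tried. Standard errors follow ±. Tested on simulated data of the 14547 genes with 200 changed, the edgeR fit called 47.4% of 2-fold and 79.4% of 4-fold changes, with 5.62% of calls false. The limma fit called 76.5% of pairs with a 4-fold change.

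The members and lists were chosen with earlier results of these data known. Named members are the 10 highest by mean CPM, the 8 with the smallest edgeR p, the 5 highest and 5 lowest ratios, the 5 smallest ratio p, the 3 nearest to each side of 10 CPM, members of a list of characterised antisense RNAs. Some members that these rules select, and likeness to the highest, are not reported here. SHROOM3-AS1, the other members without an opposite-strand exon, and genes called without Con replicate 2 were named after their values were seen.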

Additional observations from a re-analysis of the deposited data

How the results depend on the processing

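The 0 calls of edgeR over all genes (494 at an unadjusted p under 0.05) were also 0 with DESeq2 (411), limma-voom (437), another scaling and other filters. With the ratio of noncoding to coding genes as a covariate 1 gene was called, ENSG00000255823, and leaving out each library in turn gave 0 to 40. Without Con replicate 2 there were 40, and without Con replicate 1 there was 1, RN7SL1. For the members the range was 0 to 2, and for the pair ratios 0 to 1, and the highest counts came without Con replicate 2. For these changes the cause was not tested.

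With the replicate number as a block, 0 genes, 0 members and 0 pairs were called (574 genes at an unadjusted p under 0.05). The correlation of deviations between same-numbered libraries was 0.04, 0.07 and 0.04, so the numbers were not taken as pairs. The block changed no call.

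The median log2 ratio of AS1 gene to partner, 3.34, was 0.96 over pairs with at least 100 summed counts, which were chosen by both genes together, and 3.25 to 3.42 on leaving out each library. The number of members by rule was 585 at 5 CPM, 379 at 20 CPM, and 470 to 480 on leaving out each library. Over 94 named genes and partners, 134 settings changed a sign without a call, 1 passed the threshold (RXYLT1-AS1 without Con replicate 2) and 0 reversed a called result.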
